A study of Mus musculus with 12 samples.

Results

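The constructs described here disrupt Cd28 and Il2ra together, alone or with 1 or 2 of the genes Tnfrsf4, Tnfrsf9 and Tnfrsf18. They are defined by the targets named in their construct identifiers and number 42 of 689 constructs, in 7 of 101 targeted combinations with 6 constructs each. The screen delivered a pooled CRISPR library to mouse CD8+ T cells by lentivirus, with 4 sgRNAs per construct in a row and non-targeting sgRNAs in the places left empty. The cells compared were tumour-infiltrating lymphocytes (TIL): C57BL/6 CD8+ T cells stimulated ex vivo for 24 h, transduced, transferred into mice on day 12 after tumour inoculation, and sorted from the tumours as CD8+mKate2+ cells on day 7 after transfer, with 3 to 4 mice pooled per replicate and human Raji cells added as carrier for the DNA extraction. The starting reference (SR) was a frozen part of the same kind of transduced cells that never entered a mouse. Both groups had 3 replicates, each read over 2 regions of the construct, region 1 over the first pair of cassette places (1 and 2) and region 2 over places 2 and 3. Both regions come from one DNA preparation and count as 1 replicate. No label says that replicates came from separate transductions, so p-values measure the spread between these samples only. The assay counts constructs, so whether Cd28 or Il2ra was in fact cut was not measured. A pooled TIL replicate also holds only the cells that reached the tumour, and arrival, survival and division in it cannot be told apart.

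CD28 is the co-stimulatory receptor that binds CD80 and CD86 on antigen-presenting cells and gives the second signal of T cell activation. Il2ra encodes CD25, the alpha chain that makes the interleukin-2 receptor a high-affinity receptor and that activated T cells display. Interleukin-2 production depends in part on CD28 signalling, so the pair covers a cytokine's induction and its reception. Tnfrsf4 (OX40), Tnfrsf9 (4-1BB) and Tnfrsf18 (GITR) are receptors of the tumour necrosis factor receptor family that appear on activated T cells and sustain their expansion.

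The library held 10 spacers against Cd28 and 10 against Il2ra, each of 20 bases, and they are named here by letter in alphabetical order of sequence. The 42 constructs used all 20 of them in 42 distinct pairs, so a construct is named by its pair. The following spacers, taken from the construct identifiers, are those present in a construct that was found in tumours. Against Cd28 these were:
Cd28-a: aaagcagtcgcccctgcttg
Cd28-b: aacatgactccccggaggcc
Cd28-c: atccccgtcgcagttgaact
Cd28-d: caagggcgtgaacagcgacg
Cd28-f: gcttgtggtagatagcaacg
Cd28-g: gtggaagtctgtgtcgggaa
Cd28-h: tacgctgcaaagtctctggc
Cd28-i: ttcctacaaccttctcgcaa
Cd28-j: ttcttctcagttcaagtaac
Against Il2ra these were, with capitals for the 15 bases that Il2ra-a and Il2ra-c share on opposite strands:
Il2ra-a: aacccCAACATCAGCAAGCG
Il2ra-b: acctgtggtggttatggggc
Il2ra-c: agccaCGCTTGCTGATGTTG
Il2ra-d: atcttgcagatgctaatagc
Il2ra-e: gagaggtttccgaagactaa
Il2ra-h: gttgccaggtgagcccgctc
Il2ra-j: tggcattggggacctcgggt
Il2ra-a and Il2ra-c therefore address overlapping sites, while no other pair of spacers against Cd28 or Il2ra shared 10 or more bases. The GC content of the 20 spacers ran from 35 to 70%. In 11 of the 42 constructs the Cd28 or the Il2ra spacer sat in place 4 of the cassette, which neither region reads, so its presence there rests on the design.

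In tumours, most constructs against Cd28 and Il2ra were at or near 0 reads and a few were abundant. The deposited values are reads scaled by an unstated factor of the library and rounded, called scaled reads here. As estimated from the spacing of the small values, 1 read was worth between 1.36 and 2.73 scaled reads in the TIL libraries. Of the 252 values of the 42 constructs in the 6 TIL libraries, 35 lay at 5588 scaled reads or more, 217 lay at 72 or fewer, and 84 of these were 0. Detection means more than 1000 scaled reads in both regions of a replicate, a threshold that falls in this gap and was taken over from earlier work on these data. Constructs against both genes were detected in 3, 4 and 7 of 42 cases in TIL 1, TIL 2 and TIL 3, which is 7.14% (Wilson 95% interval 2.46 to 19.0%), 9.52% (3.77 to 22.1%) and 16.7% (8.32 to 30.6%). Over the whole library the shares were 11.3, 8.85 and 14.1%, inside these intervals, which cover counting error only. Altogether 13 constructs were detected, 12 of them in 1 replicate and 1 in 2 replicates. The remaining 29 were detected in no TIL replicate, a share set against 73.7% of the library. In CPM (scaled reads per 1000000 of the library total, averaged over the regions) the 42 constructs together took 2.88, 7.13 and 11.7% of TIL 1, TIL 2 and TIL 3, against 6.17, 6.16 and 6.10% of SR 1, SR 2 and SR 3. The share was below that of SR in TIL 1 and above it in TIL 2 and TIL 3, while the 3 SR shares lay close together.

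Against SR, constructs that stayed near 0 in every TIL library fell and the others did not pass the test. With limma on log2(CPM + 1), fitted on all 689 constructs, 24 of the 42 were lower in TIL and 0 were higher (adjusted p under 0.05), against 67.8% lower and 0.435% higher over the library. The 24 constructs that fell were the 24 that exceeded 1000 scaled reads in no TIL library, where their highest value was 21 scaled reads or 0.546 CPM. Their log2 changes ran from -11.06 to -6.96, with limma adjusted p between 1.29e-07 and 2.38e-05. Across these 24 constructs, which share the same 6 replicates, the log2 change followed the starting level with Spearman's rho of -0.995, so the size of these falls mirrors the SR level and does not rank the constructs by loss. Adding 1 to CPM before the logarithm also makes such falls too small. TIL DNA was amplified by PCR in 2 steps and SR DNA directly, and this difference and the passage through the tumour cannot be told apart. The other 18 constructs exceeded the threshold in at least 1 TIL library. Their log2 changes ran from -7.48 to -1.52 with standard errors between 3.16 and 4.59, and none passed (limma adjusted p between 0.125 and 0.746). The median change was -8.18 over the 42 constructs and -8.50 over all 689.

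The double disruption without a further target had 2 detections among 18 cases, by different constructs in different replicates. The Cd28-j/Il2ra-e construct had 0.4295, 24949.5 and 1386 CPM in TIL 1, TIL 2 and TIL 3, against 2936, 3635 and 3185 CPM in SR. It was the sixth most abundant of 689 constructs in TIL 2 and was near 0 in TIL 1, while in TIL 3 only region 2 held it, with 22982 scaled reads against 2 in region 1. The Cd28-g/Il2ra-a construct had 0.650, 0.693 and 18513 CPM in TIL, against 2209, 2136 and 2307 CPM in SR, so it was 8.02-fold above SR in replicate 3 and near 0 in the others. Both gene-targeting spacers of these constructs were also present in constructs that stayed near 0. Relative to the non-targeting constructs of the same replicate, the combination Cd28+Il2ra had log2 TIL/SR values of -1.18, 1.44 and 3.63 in replicates 1, 2 and 3. The mean of 1.30 ± 1.12 (SE, n = 3) did not pass limma over 101 combinations (adjusted p = 0.631). With a replicate left out it ran from 0.13 (without replicate 3) to 2.54 (without replicate 1), and read from region 1 alone it was 0.18. Disruption of Cd28 alone had -0.96, 1.71 and 2.03 and of Il2ra alone 1.32, 2.04 and 0.71 in the same replicates. The values of the pair and of each gene alone thus overlapped. These values rest on few constructs. All 3 detections of Il2ra alone came from 1 of its 6 constructs, and the other 5 fell. Cd28 alone was detected in 1 of 18 cases, in TIL 2, and its signals in TIL 3 each came from a single region.

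Adding Tnfrsf9, which encodes 4-1BB, gave the highest value of the 7 combinations with all replicates and both regions, though not under each alternative. Cd28+Il2ra+Tnfrsf9 had 2.21, 0.68 and 2.78 in replicates 1, 2 and 3, above the non-targeting mean each time, and a different construct was detected in each. The mean was 1.89 ± 0.63 (SE, n = 3) and did not pass (limma adjusted p = 0.153, unadjusted p = 0.0183). The Il2ra-b/Cd28-a construct had 8057, 0.130 and 1871 CPM in TIL, against 2485, 2775 and 2623 CPM in SR. Its level in TIL 3 came from region 2, with 30997 scaled reads against 72 in region 1. The Cd28-a/Il2ra-j construct had 0.0696, 10149 and 0.225 CPM in TIL, against 1634, 1251 and 1430 CPM in SR. These constructs share Cd28-a and were found in tumours in different replicates. The Il2ra-e/Cd28-c construct had 0.337, 0.118 and 1554 CPM in TIL, against 1261, 1002 and 1069 CPM in SR, and its 5588 scaled reads in region 2 of TIL 3 were the lowest value above the threshold. In CPM the combination took 0.984, 1.02 and 0.709% of the reads of TIL 1, TIL 2 and TIL 3, against 1.03, 1.05 and 1.03% of SR, so its share of reads was below that of SR in each replicate. Its positive value is a mean of log ratios relative to non-targeting constructs, which were detected in 16 of 252 cases. Region 1 alone gave 0.30 and region 2 alone 1.98. Cd28+Il2ra+Tnfrsf9+Tnfrsf18 was higher in region 1 alone, at 1.24, and with the authors' log2 ratios, at 1.37 against 1.26. Without replicate 1, Cd28+Il2ra was higher, at 2.54 against 1.73.

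Adding Tnfrsf18, which encodes GITR, gave 2 detections. The Cd28-i/Il2ra-b construct had 6990, 0.199 and 0.110 CPM in TIL, against 2251, 2085 and 2014 CPM in SR. The Il2ra-d/Cd28-h construct had 0.569, 0.351 and 6104 CPM in TIL, against 3119, 3662 and 3260 CPM in SR. Each was thus above SR in 1 replicate and near 0 in the other two. Cd28+Il2ra+Tnfrsf18 had 1.39, -0.46 and 0.54 relative to non-targeting constructs in replicates 1, 2 and 3, a mean of 0.49 ± 0.57 (SE, n = 3; limma adjusted p = 0.745). It was 0.039 without replicate 1 and 0.96 without replicate 2.

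Adding Tnfrsf4, which encodes OX40, gave the most uneven replicates. Cd28+Il2ra+Tnfrsf4 had -1.81, -1.59 and 4.09 relative to non-targeting constructs, with none of its 6 constructs detected in TIL 1 or TIL 2 and 2 detected in TIL 3. The Cd28-a/Il2ra-c construct had 0.395, 0.0435 and 38464 CPM in TIL, against 1670, 1683 and 1557 CPM in SR. It was the second most abundant construct of TIL 3 and stood 24.7-fold above SR there, the highest ratio of any of the 42 constructs in any replicate. The Cd28-f/Il2ra-j construct had 0.534, 0.161 and 33192 CPM in TIL, against 3530, 3604 and 3953 CPM in SR, and had rank 4 in TIL 3. Together with its undetected constructs the combination took 7.38% of TIL 3, against 1.13% of SR 3, and less than 0.001% of TIL 1 and of TIL 2. The mean of 0.23 ± 1.48 (SE, n = 3) did not pass (limma adjusted p = 0.928), and it became -1.70 without replicate 3.

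With 2 receptors of the tumour necrosis factor family added, the 3 combinations differed in detection. Cd28+Il2ra+Tnfrsf9+Tnfrsf18 had 4 detections in 18 cases and values of 0.81, 1.31 and 1.63 relative to non-targeting constructs, a mean of 1.25 ± 0.49 (SE, n = 3; limma adjusted p = 0.202, unadjusted p = 0.0360). It held the only one of the 42 constructs that was detected in 2 replicates. The spacers of this construct, in cassette order, are shown because it is that repeat:
Tnfrsf9-h: tgtgaaaaggactgcaggcc
Il2ra-d: atcttgcagatgctaatagc
Tnfrsf18-c: gcagtgaccgtcacgacctg
Cd28-b: aacatgactccccggaggcc
This construct had 7519, 20248 and 0 CPM in TIL, against 1648, 1379 and 1575 CPM in SR, so it was 4.56-fold and 14.7-fold above SR in replicates 1 and 2 and was not seen in TIL 3. Its log2 change over all replicates was -1.52 ± 4.18 (SE, n = 3; limma adjusted p = 0.746). Without replicate 3, the one in which it was not seen, its log2 change was 3.03, and in that fit 28 of 689 constructs were higher, against 3 with all replicates. TIL 1 and TIL 2 shared 29 detected constructs over the library, TIL 1 and TIL 3 shared 18 and TIL 2 and TIL 3 shared 14. The Il2ra-h/Cd28-b construct of the same combination had 0.650, 0.161 and 4817 CPM in TIL, against 2532, 2525 and 2842 CPM in SR. The Il2ra-b/Cd28-c construct had 0.337, 0 and 4073 CPM in TIL, against 2086, 2284 and 2397 CPM in SR. Both were above SR in replicate 3 by less than 2-fold.

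The combinations of 4 targets that include Tnfrsf4 stood lowest of the 7. Cd28+Il2ra+Tnfrsf4+Tnfrsf18 had 0.58, 0.64 and -2.77 relative to non-targeting constructs, a mean of -0.52 ± 0.93 (SE, n = 3; limma adjusted p = 0.795). Its 1 detection was the Il2ra-h/Cd28-d construct, with 0.0465, 15955 and 0 CPM in TIL, against 656, 806 and 601 CPM in SR, a 19.8-fold excess over SR in replicate 2 from the lowest SR level of any detected construct in the set. Cd28+Il2ra+Tnfrsf4+Tnfrsf9 was detected in 0 of 18 cases, which allows a share of up to 16.7%, and 14 of the 101 combinations had no detection. All 6 of its constructs fell, and it had -0.85, -0.53 and -1.79 relative to non-targeting constructs, a mean of -1.05 ± 0.52 (SE, n = 3; limma adjusted p = 0.343). Its construct with the smallest fall, Cd28-a/Il2ra-a, had a log2 change of -8.26 with a standard error of 0.40 (adjusted p = 1.48e-05 with limma). The SR median of its constructs was 903 CPM, against 1136 CPM over the library and 806 CPM for the non-targeting constructs. Over the 7 combinations 0 passed limma, against 0.990% of all 101, and 2 of the 7 had an unadjusted p under 0.05, against 19 of 101. Of the 7, 5 lay above the non-targeting mean, as did 72 of all 101, and the median was 0.49 for the 7 and 0.52 for all.

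Within the set, the mean of the combinations with Tnfrsf4 lay below the mean of those without it in each replicate. Single combinations did not all follow this order: Cd28+Il2ra+Tnfrsf4 was the highest of the 7 in replicate 3, at 4.09. The 3 with it averaged -0.45 and the 4 without it 1.23, and the difference was -1.50, -1.24 and -2.30 in replicates 1, 2 and 3, or -1.68 ± 0.55 (SD, n = 3). Their constructs were detected in 3 of 54 cases with Tnfrsf4 and in 11 of 72 without it. The same difference was -0.59 ± 1.41 among combinations with Cd28 and without Il2ra, -0.88 ± 0.47 among those with Il2ra and without Cd28, and -1.10 ± 0.78 among those of the tumour necrosis factor receptors alone (SD, n = 3 each). Among combinations with Cd28 and without Il2ra the difference was above 0 in replicate 1, at 0.63. Detection there was 7 of 72 cases with Tnfrsf4 and 6 of 72 without it. For Il2ra without Cd28 it was 3 of 72 and 7 of 72, and for the tumour necrosis factor receptors alone 5 of 72 and 8 of 54. The lower value with Tnfrsf4 was already seen over all co-stimulatory combinations, of which these 7 are part, and was not tested again here. When each replicate was centred on its non-targeting constructs, 9 of the 42 constructs were lower (limma adjusted p under 0.05), against 21.0% of the library. Of these 9, 8 held Tnfrsf4, as did 18 of all 42 constructs and 13 of the 24 never above the threshold. Starting levels moved with this count: the 9 started at 1200 to 2671 CPM in SR. Constructs never above the threshold had a median of 1347 CPM in SR with Tnfrsf4 and of 655 CPM without it. The part of starting levels in the result was not tested. For Tnfrsf9 the difference with minus without the gene was 0.32 ± 0.76 and for Tnfrsf18 -0.18 ± 1.95 (SD, n = 3 each), within the spread between replicates. Averaged by number of targets, the single pair had 1.30 ± 2.41, the 3 combinations of 3 targets 0.87 ± 1.48 and the 3 combinations of 4 targets -0.11 ± 0.77 (SD, n = 3), which overlap.

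The regions of a TIL replicate disagreed in 7 cases. A construct exceeded 1000 scaled reads in only one region in 1 case for region 1 and in 6 cases for region 2, next to the 14 cases detected in both. That is 33.3% of the 21 cases with any signal, against 21.9% over the library, where region 1 alone had 31 cases and region 2 alone 35. Of the 7 cases, 5 belonged to constructs never detected in both regions, which are named here after their values were seen. In TIL 1 the Il2ra-f/Cd28-c construct of Cd28+Il2ra+Tnfrsf4+Tnfrsf18 had 126543 scaled reads in region 2 and 3 in region 1. The Il2ra-c/Cd28-c construct of Cd28+Il2ra+Tnfrsf9 had 51302 in region 2 and 2 in region 1 of the same replicate. Each region identifies a construct by 2 spacers, and the sources used here do not give the scoring of reads with an unexpected pair. In TIL 3 the Il2ra-c/Cd28-b construct of Cd28+Il2ra+Tnfrsf4 had 96477 scaled reads in region 1 and 0 in region 2. The Cd28-f/Il2ra-g construct of Cd28+Il2ra+Tnfrsf9 had 22 in region 1 and 60714 in region 2, and the Il2ra-b/Cd28-g construct of Cd28+Il2ra had 2 and 27374. Counted in either region, 16.7% of the 126 cases showed the construct, against 11.1% in both.

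By spacer, detections were spread over 9 of 10 Cd28 spacers and 7 of 10 Il2ra spacers. Cd28-a and Cd28-b gave 3 detections each in 15 cases, while Cd28-e gave 0 in 6, at a median SR level of 150 CPM for its constructs. All 3 Cd28-b detections came from constructs that hold it in place 4 of the cassette, which neither region reads. Among Il2ra spacers, Il2ra-b gave 3 detections in 15 cases and Il2ra-d 3 in 12, while Il2ra-f, Il2ra-g and Il2ra-i gave 0 in 12, 6 and 15. Outside the 42 constructs, Il2ra-g and Il2ra-i were again detected in 0 of 15 cases each, while Il2ra-f was detected in 1 of 21. The spacers with most detections in the set had none outside it, with 0 of 15 cases for Cd28-a, 0 of 12 for Cd28-b and 0 of 3 for Il2ra-b, and Il2ra-d had 1 of 9. Constructs with Il2ra-g and Il2ra-i started at medians of 2053 and 655 CPM in the set. Il2ra-c was the spacer of the single-gene Il2ra construct that rose in all 3 replicates, by 2.74 ± 0.39 in log2 units (SE, n = 3; adjusted p = 0.00172 with limma). In the set, Il2ra-c was present in 3 constructs and detected in 1 of 9 cases, the Cd28-a/Il2ra-c construct of TIL 3, and the remaining 2 were those with signal in a single region above. Il2ra-a, whose site overlaps that of Il2ra-c, was detected in 1 of 15 cases in the set and in 0 of 18 outside it, and the Il2ra construct that carries it alone had a log2 change of -8.55 with a standard error of 0.17 (adjusted p = 3.56e-07 with limma). A spacer shared by several constructs does not make these constructs replicates, and no spacer was tested.

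By place in the cassette, Cd28 spacers in places 1, 2, 3 and 4 gave 6 of 48, 3 of 33, 2 of 27 and 3 of 18 detections. Il2ra spacers in places 1, 2, 3 and 4 gave 3 of 27, 8 of 54, 3 of 30 and 0 of 15. No place stood apart for Cd28, and the 0 of 15 for Il2ra allows a share of up to 20.0%.

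Pooled over replicates, detection was more frequent at higher starting levels, but not in each replicate. In SR the 42 constructs ran from 130 to 3696 CPM with a median of 1290, against a median of 1136 CPM over the library, and SR replicates ranked them alike (Spearman's rho between 0.949 and 0.976 across 42 constructs that share each library). In TIL the ranks of the replicates correlated at 0.31 to 0.57. With the library cut into 3 equal bands of SR level, 1 of 33 cases of the set was detected in the lowest band, 4 of 51 in the middle band and 9 of 42 in the highest band, which is 3.03, 7.84 and 21.4%. Of the 9 in the highest band 6 came from TIL 3, and in TIL 2 the set had 1, 2 and 1 detections in the lowest, middle and highest bands. All other constructs had 2.74, 11.3 and 20.4% in the same bands. In TIL 3 the 7 detected constructs had a median of 2397 CPM in SR 3 and the 35 undetected ones 1257 CPM, and in TIL 1 the medians were 2251 and 1232 CPM. In TIL 2 they were 1315 and 1208 CPM. The 18 constructs with any signal above the threshold had a median of 2019 CPM in SR and the 24 without any had 825 CPM.

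Set beside the other co-stimulatory constructs, those against both genes differed in mean by less than their own spread between replicates. Their median lay below that of constructs with Cd28 and without Il2ra in replicates 1 and 2 but not in replicate 3. Their mean log2 TIL/SR minus the non-targeting mean was 0.16, 0.21 and 1.16 in replicates 1, 2 and 3, or 0.51 ± 0.56 (SD, n = 3). Constructs with Cd28 and without Il2ra had 0.44 ± 0.35, those with Il2ra and without Cd28 0.18 ± 0.28, and those against the tumour necrosis factor receptors alone 0.10 ± 0.86 (SD, n = 3 each). The median of the set, by contrast, lay at -0.40 ± 0.31 relative to the non-targeting median (SD, n = 3), so its mean and median differ in sign. On the same scale the median was -0.057 ± 0.22 for Cd28 without Il2ra, 0.078 ± 0.52 for Il2ra without Cd28 and -0.53 ± 0.16 for the tumour necrosis factor receptors alone (SD, n = 3 each). The gap to Cd28 without Il2ra is larger than either spread, and the other two gaps are smaller than the larger of the spreads compared. By replicate the median was -0.49, -0.65 and -0.050 for both genes, against -0.23, 0.19 and -0.13 for Cd28 without Il2ra. The order of these groups thus reversed in replicate 3. Detection was 11.1 ± 4.96% of cases for both genes, 9.03 ± 1.2% for Cd28 without Il2ra, 6.94 ± 3.18% for Il2ra without Cd28, 10.3 ± 1.37% for the tumour necrosis factor receptors alone and 6.35 ± 4.18% for non-targeting constructs (SD, n = 3 each). The SR medians of these groups were 1290, 949, 1024, 1460 and 806 CPM in the same order, and their part in the differences was not tested. The share of constructs that fell was 57.1% for both genes, 68.8% for Cd28 without Il2ra, 77.1% for Il2ra without Cd28, 66.7% for the receptors alone and 81.0% for non-targeting constructs. These differences between groups were not tested, because the groups were formed with results of the screen known.

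By the authors' threshold of a log2 TIL/SR ratio of at least 1 in both regions, 10 of the 14 detected cases were up 2-fold. In the authors' deposited table for replicate 3, Cd28+Il2ra+Tnfrsf4 had 2 such constructs and Cd28+Il2ra had 1, with log2 enrichments of 2.78 and 2.20 over the library. In the authors' deposited tables for replicates 1 and 2, 3 and 4 of the 7 combinations had 1 construct up 2-fold each, at a log2 enrichment of 1.69 in replicate 1 and 1.90 in replicate 2. Over the library 8.71, 7.55 and 6.10% of constructs reached the threshold in replicates 1, 2 and 3, or 60, 52 and 42 constructs. For a combination with 1 such construct, the enrichment differed between replicates only with this library count. Its size therefore adds nothing to the count of constructs up 2-fold. No combination of the 7 held such a construct in all 3 replicates.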

How the data were processed

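There were 12 libraries: 3 replicates of TIL and 3 of SR, each over 2 regions. Per the file headers, columns name condition and region. SR columns lack a replicate number, so each SR library took the number of the TIL library in its table. Values are scores: read numbers per construct, multiplied by the authors by a factor not given in the sources used here and rounded to whole numbers. Totals were 8288404 to 23012713 in TIL and 9963617 to 25646820 in SR. The submitters' processing notes name Bowtie2 without version or role. The authors' deposited log2 ratios of TIL to SR were returned within 5e-05 with 10 added to both values.

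Scores were divided by library totals and multiplied by 1000000 (CPM), regions averaged, and log2(CPM + 1) fitted with limma 3.58.1 in R 4.3.3 without a replicate block or a filter, with Benjamini-Hochberg adjustment over 689 constructs. A combination is the mean of its constructs minus that of 84 non-targeting constructs of the same sample, fitted over 101 combinations. The fits were also run on simulated data. The setting and outcome of that run are not given here, so it says nothing about how well the fits handle the uneven TIL values. Each construct detected in at least 1 TIL replicate was named and, in a combination without one, the construct with the highest log2 change. The members, lists and detection threshold were chosen with earlier results of these data known. RefSeq gene names (GRCm38.p6) covered the 5 target symbols, and no coordinates are given.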

Additional observations from a re-analysis of the deposited data

How the results depend on the processing

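Alternatives changed the pseudocount, the filter on low values, the centring, the regions, the replicates, the block, the source of the ratios and the detection threshold. The count of 24 lowered constructs (467 of 689 over the library) was 9 when replicates were centred on non-targeting constructs (145 over the library) and 26 to 34 with a replicate left out (487 to 559 over the library). The count of raised constructs was 0 (3 over the library), and 0 to 1 with a replicate left out (7 to 28 over the library, with 1 and 28 without replicate 3). The count of combinations past limma was 0 of 7 in 11 alternatives, and 2 with medians over constructs (48 of all 101), where Cd28+Il2ra+Tnfrsf4+Tnfrsf18 had -0.92 (adjusted p = 0.00430) and Cd28+Il2ra+Tnfrsf9+Tnfrsf18 turned to -0.63 (adjusted p = 0.00143). With the replicate number as a block (replicate block) 24 of the 42 constructs and 0 of the 7 combinations passed, while 4 of all 101 combinations passed with the block, against 1 without it. Of all 101, 2 passed at log2(CPM + 0.1) or in region 1 alone, 6 with the authors' log2 ratios and 0 to 10 with a replicate left out. Deviations of same-numbered TIL and SR samples from group means correlated at 0.075, -0.082 and 0.086, with SR samples too alike to judge pairing.

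The mean of the 42 constructs relative to non-targeting constructs was 0.51, and -0.11 when centred on all constructs and -0.40 with medians; with a replicate left out it ran from 0.19 to 0.69, and region 1 alone gave 0.085. Detection was 16.7% of cases in either region, against 11.1% in both, and 8.33 to 13.1% with a replicate left out.

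Cd28+Il2ra+Tnfrsf4 turned to -0.10 at log2(CPM + 10), -0.39 when centred on all constructs, -0.47 in region 2 and -1.70 without replicate 3. Cd28+Il2ra+Tnfrsf18 turned to -0.13 when centred on all constructs, and Cd28+Il2ra+Tnfrsf4+Tnfrsf18 to 0.61 without replicate 3; with a replicate left out, values ran from -1.70 to 1.25 for Cd28+Il2ra+Tnfrsf4 and from -1.09 to 0.61 for Cd28+Il2ra+Tnfrsf4+Tnfrsf18. With a replicate left out, Cd28-j/Il2ra-e ran from -6.10 to 0.79, Il2ra-b/Cd28-a from -5.87 to 0.61 and Il2ra-d/Cd28-b from -4.22 to 3.03. Centred on non-targeting constructs, the 14 named constructs were above 0: 2.50 (Cd28-g/Il2ra-a), 5.26 (Cd28-j/Il2ra-e), 1.75 (Cd28-i/Il2ra-b), 2.98 (Cd28-a/Il2ra-c), 1.83 (Cd28-f/Il2ra-j), 2.48 (Cd28-a/Il2ra-j), 3.66 (Il2ra-h/Cd28-d), 1.40 (Il2ra-b/Cd28-c), 5.05 (Il2ra-b/Cd28-a), 1.25 (Il2ra-d/Cd28-h), 1.43 (Il2ra-h/Cd28-b), 2.01 (Il2ra-e/Cd28-c), 6.88 (Il2ra-d/Cd28-b) and 0.13 (Cd28-a/Il2ra-a), with limma adjusted p between 0.303 and 0.829. Centring subtracts the same amount from each construct of a sample, so the shifts of these 14 constructs follow from arithmetic. Of the 14, 13 were named because they were detected in TIL, and the other for the highest log2 change of its combination. Non-targeting constructs were detected in 16 of 252 cases, so values above 0 were largely fixed by this choice. The cause of the shifts with other pseudocounts, regions or replicates was not tested. Intervals cover counting error only, and PCR reads without molecular identifiers are not independent molecules.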
